A study of Mus musculus with 20 samples.

Results

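The expression of 40 genes of fatty acid oxidation and ketone use was followed in mouse AgRP neurons from Phf6 conditional knockout and wild-type mice, with and without food. The 40 genes were taken by symbol from a list that covered fatty acid activation, the carnitine shuttle, mitochondrial and peroxisomal beta-oxidation, ketone body use and their regulators. All 40 were among the 23129 gene names in the count table. Of them 38 passed a filter on low counts, as did 13237 genes in all; Ppara and Pdk4 did not.

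The study compared 4 groups of 5 libraries each: fasted cKO, fed cKO, fasted WT and fed WT. The cKO (conditional knockout) mice were Phf6 flox/y; AgRP-Cre/+; Ai9/+, so that Phf6, which lies on the X chromosome and encodes a protein of chromatin, is recombined in cells with active AgRP-Cre. The WT mice were AgRP-Cre/+; Ai9/+ littermates, which carry the Cre and the tdTomato reporter too. All were C57BL/6 mice aged P25 to P30. Fasted mice had lost their food at 5 pm on the previous day and kept water. Each library came from 1000 sorted tdTomato+ cells of a hypothalamic punch, amplified with SMART-seq v4 for 15 cycles. The labels do not say how many mice each library holds, so p-values measure the spread between these samples.

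AgRP neurons sit in the arcuate nucleus of the hypothalamus, drive feeding and are more active in hungry animals. A fatty acid is first joined to coenzyme A, crosses into mitochondria as a carnitine ester and is then shortened by repeated rounds of beta-oxidation, while peroxisomes shorten very long and branched chains. Ketone bodies, made by the liver during fasting, are turned back to acetyl-CoA in the brain by enzymes of ketone body use. Neurons are known for low rates of fatty acid oxidation, and Ucp2 and fatty acid oxidation have been linked to the response of AgRP neurons to the hunger hormone ghrelin.

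The libraries held 8494499 to 13573524 counts. Phf6 itself averaged 61.2 ± 6.900 CPM (TMM-scaled counts per 1e6 counts; SD, n = 5) in fasted cKO and 70.7 ± 4.85 in fed cKO libraries, against 128 ± 11.02 in fasted WT and 276 ± 10.2 in fed WT libraries. Phf6 counts were thus reduced but not absent in cKO libraries, and they were also lower in fasted than in fed WT libraries. These are counts over the whole gene, in which recombined and intact transcripts cannot be told apart. Agrp, the defining peptide of these neurons, averaged 11310.0 ± 1548 CPM in fasted cKO and 5066 ± 399.8 in fed cKO libraries, and 14929 ± 2487 in fasted WT and 4554 ± 185 in fed WT libraries. Microglial markers were near 0, with summed levels of 0.239 to 2.49 CPM over 10 genes in any library, and Tmem119 was at 0 in all 4 groups. The fasted libraries fell into 2 sets in either genotype, replicates 1 and 2 and replicates 3 to 5. Across the sets the root-mean-square difference in log2 CPM was 0.589 to 0.629 in fasted cKO and 0.617 to 0.674 in fasted WT libraries, against 0.507 to 0.571 and 0.495 to 0.526 within the sets; in fed groups the ranges across and within the sets overlapped. Where a member's call was lost or gained with either set alone, its value with that set is given, singly or within a range over several fits or genes.

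More of these genes fell than rose with fasting in both genotypes. In cKO neurons 6 of 38 rose and 19 fell with fasting, and in WT neurons 4 rose and 20 fell, at an adjusted p under 0.05 in edgeR's quasi-likelihood test over all tested genes. Over all 13237 genes, 26.0% rose and 27.0% fell in cKO, and 29.6% rose and 31.3% fell in WT. The same shares stand beside the fasting counts by role and by list below. The members' median log2 fold change was -0.26 in cKO and -0.31 in WT, beside -0.033 and -0.032 for all tested genes. In cKO the count of rises was 3 with upper-quartile normalization (all genes, 24.2%) and 3 without the low-count filter (all genes, 17.7%). With fasted replicates 1 and 2 alone, 4 rose and 21 fell in cKO (all genes, 25.6% and 27.0%) and 3 rose and 15 fell in WT (27.5% and 29.8%). With fasted replicates 3 to 5 alone, 5 rose and 18 fell in cKO (24.7% and 25.4%) and 5 rose and 20 fell in WT (29.2% and 31.4%). In these bulk samples fewer cells of a type and less RNA per cell cannot be told apart.

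In both genotypes 3 genes rose (Etfa, Acsl4 and Ppargc1a) and 14 fell: Cpt1c, Cpt2, Crot, Acads, Acad9, Hadha, Eci1, Etfb, Etfdh, Hsd17b4, Acaa1a, Acaa2, Acsl5 and Pdk2. Another 5 passed as lower in cKO and not in WT, namely Acadl, Echs1, Acox3, Ehhadh and Ucp2, and 5 passed as lower in WT and not in cKO, namely Acadsb, Acadvl, Acat1, Oxct1 and Bdh1. Acsl3 and Hadhb passed as higher in cKO alone and Acsl1 in WT alone, while Acadm was higher in fasted cKO and lower in fasted WT libraries. The other 7 tested (Cpt1a, Crat, Hadh, Eci2, Decr1, Acsl6 and Ppard) passed in neither. Whether the 2 responses differ is answered by the interaction below, not by these counts.

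Between genotypes, fewer members differed. In fasted libraries 8 were higher and 4 lower in cKO than in WT (all genes, 11.5% and 8.84%), and in fed libraries 2 were higher and 1 lower (all genes, 5.87% and 3.81%). The count lower in fed cKO was 8 in a fit of the 2 fed groups alone, where 11.1% of all genes were lower. It was 7 with fasted replicates 1 and 2 and 7 with replicates 3 to 5 (all genes, 8.51% and 8.47%), 4 with GC and length offsets (5.41%) and 3 by DESeq2's Wald test (4.35%). The members gained as lower in 1 or more of these fits were Acadm, Acat1, Acsl5, Cpt1c, Etfb, Hadha and Hsd17b4, at -0.15 to -0.27, beside -0.14 to -0.26 in the fit over all 4 groups. The fasting response itself differed between genotypes for 10 members: the change with fasting was more positive in cKO for 8 (all genes, 8.87%) and more negative for 2 (all genes, 8.44%). With fasted replicates 1 and 2 alone the fasted genotype counts were 4 and 3 (all genes, 7.30% and 4.81%) and the interaction counts 6 and 3 (8.70% and 7.20%). With replicates 3 to 5 alone they were 9 and 4 (14.2% and 12.6%), and 8 and 4 (13.3% and 13.2%). The 2 fasting comparisons and the 2 genotype comparisons share libraries with each other and with the interaction, so their counts are not independent.

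**Figure D1:**
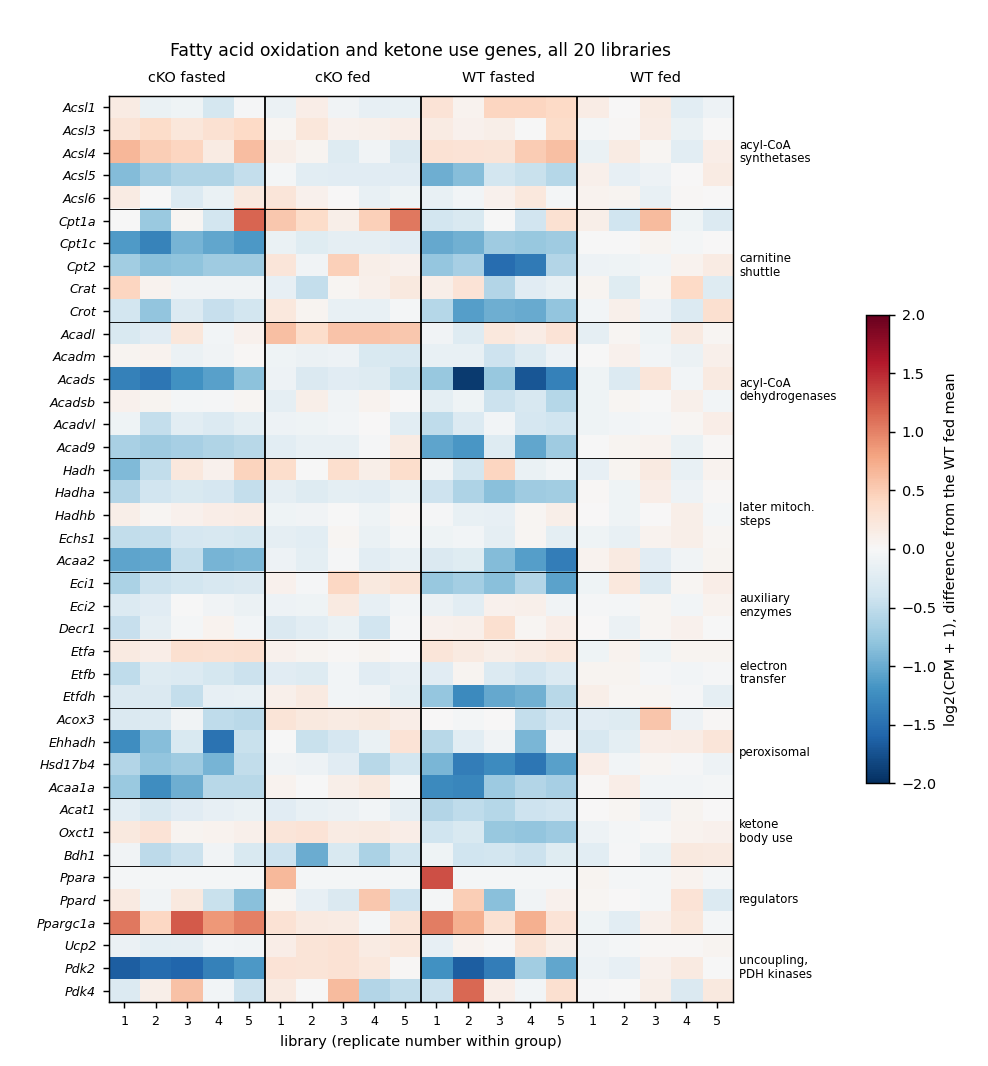
Rows are the 40 genes by role, columns the 20 libraries, and colour is log2(CPM + 1) minus the mean of the 5 fed WT libraries, clipped at 2. Both fasted groups show lower values for genes such as Pdk2, Acads and Cpt1c and higher values for Ppargc1a, while Oxct1 is low in fasted WT libraries only.

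**Figure D2:**
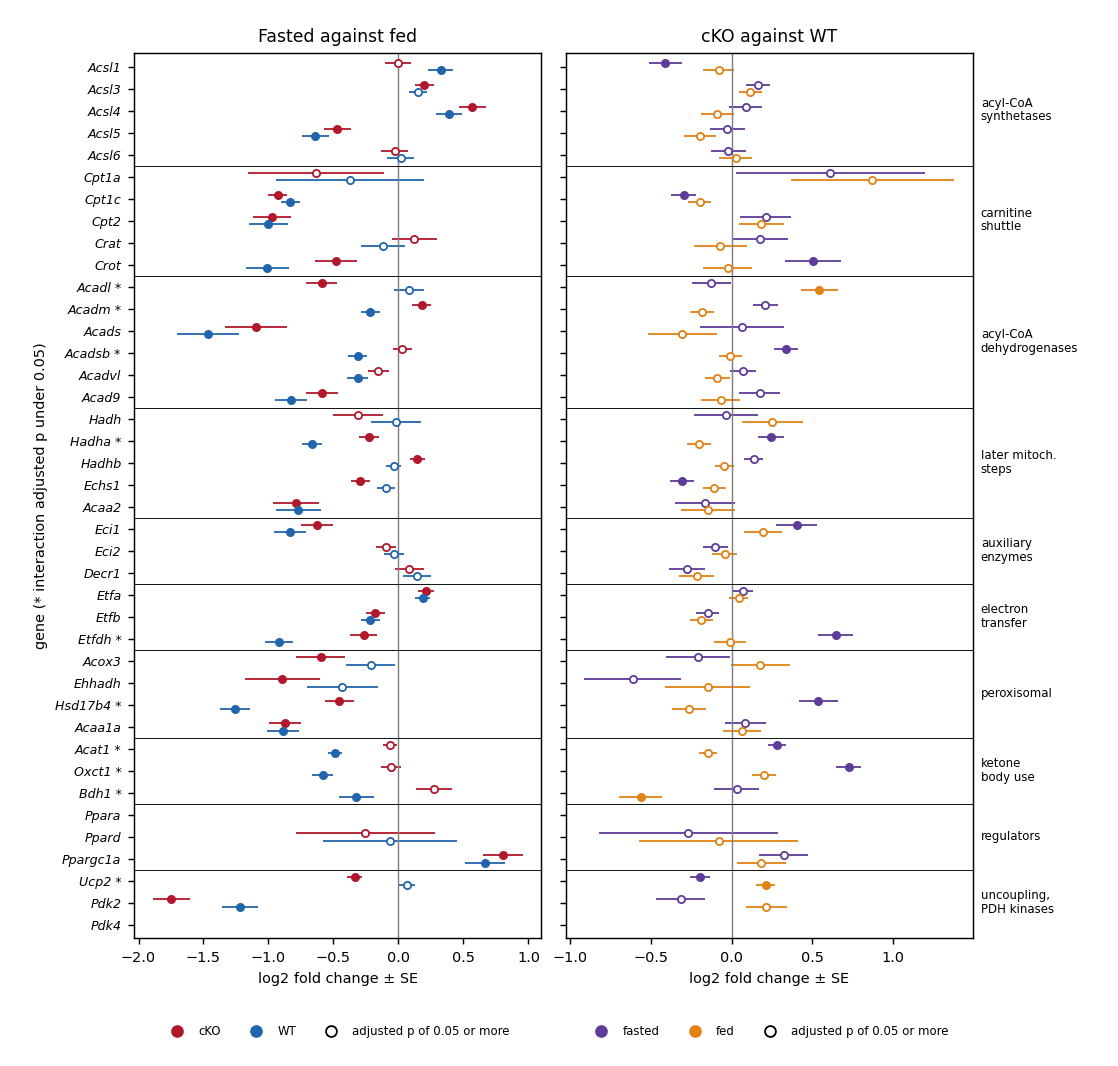
Points are log2 fold changes with SE bars for the 38 tested genes, fasted against fed in each genotype at left and cKO against WT in each feeding state at right; open points had an adjusted p of 0.05 or more and stars mark the 10 genes whose interaction passed. Oxct1, Acat1 and Bdh1 lie below 0 in WT and from -0.067 to 0.27 in cKO.

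Levels differed widely among the genes. Per kilobase of exon, averaged over the 4 groups, Etfb led at 92.1 CPM per kb, followed by Oxct1 at 53.3, Acat1 at 53.2, Ucp2 at 46.7 and Etfa at 44.1. The next were Acadvl at 31.99 and Hadhb at 24.98 CPM per kb. At the low end stood Pdk4, Cpt1a, Ppard and Ppara, each at 0.176 CPM per kb or less. Bdh1, at 4.52 CPM per kb, and Etfdh, at 5.90, stood below their partners in ketone use and electron transfer. The length used is that of all annotated exons of a gene together, so levels per kb and their order depend on it. In CPM the gap of Etfdh was smaller: 52.9 in fed WT libraries, beside 74.2 for Etfa and 122 for Etfb. Bdh1 averaged 21.3 CPM there, beside 201 for Oxct1 and 230 for Acat1. The library kit does not mark strand, and 58.2% of the Etfb exons and 42.9% of the Acadvl exons overlap another annotated gene. Both levels thus depend on how shared reads were counted, and could be too high or too low.

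**Figure D3:**
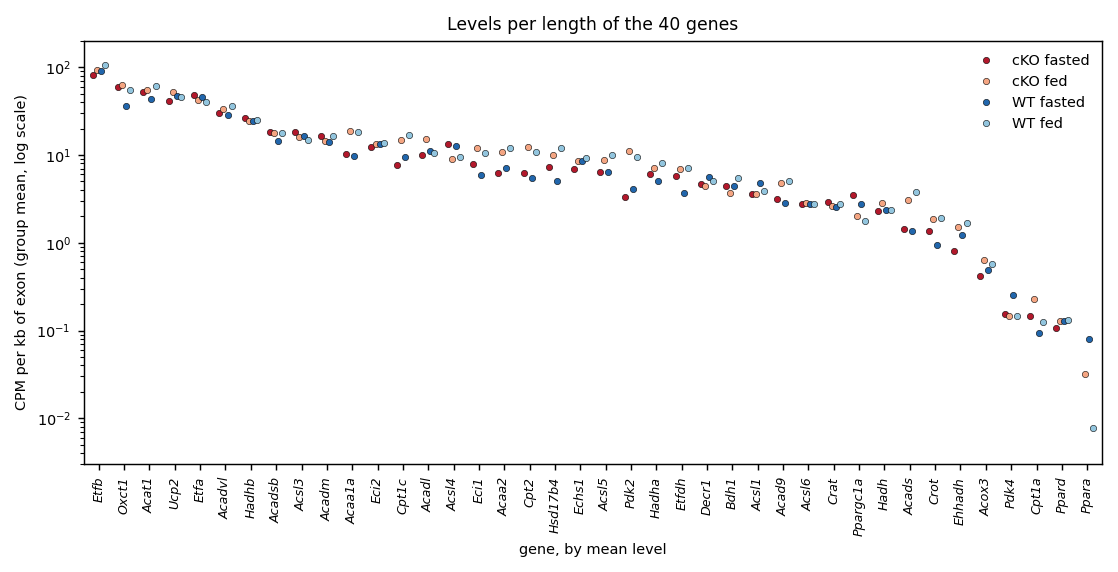
Group mean CPM per kilobase of exon on a log axis for the 40 genes, ordered by their mean; the group of fasted cKO libraries at 0 for Ppara is not drawn. The mean over groups runs from 92.1 CPM per kb for Etfb to 0.0297 for Ppara.

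Promoter windows were read for 4 genes on which the results turn: Ppargc1a, which rose with fasting, Oxct1, whose response differed between genotypes, and the expressed and nearly silent forms of carnitine palmitoyltransferase 1, Cpt1c and Cpt1a. The windows run from 250 bases before to 50 after the start of the gene (RefSeq, GRCm38.p6) and are given 5′ to 3′ on the strand of the gene. They lie at chr5:51567676-51567975 (minus strand) for Ppargc1a, chr15:4026178-4026477 (plus) for Oxct1, chr7:44974802-44975101 (minus) for Cpt1c and chr19:3323051-3323350 (plus) for Cpt1a. Capitals mark a cAMP response element half-site, TGACG or its reverse complement, or a nuclear receptor half-site, AGGTCA or its reverse complement.
Ppargc1a: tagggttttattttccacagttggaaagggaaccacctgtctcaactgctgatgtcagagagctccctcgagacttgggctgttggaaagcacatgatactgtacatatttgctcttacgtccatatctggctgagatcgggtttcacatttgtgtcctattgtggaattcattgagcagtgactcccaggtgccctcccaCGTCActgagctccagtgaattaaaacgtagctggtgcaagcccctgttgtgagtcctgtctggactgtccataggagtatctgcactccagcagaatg
Oxct1: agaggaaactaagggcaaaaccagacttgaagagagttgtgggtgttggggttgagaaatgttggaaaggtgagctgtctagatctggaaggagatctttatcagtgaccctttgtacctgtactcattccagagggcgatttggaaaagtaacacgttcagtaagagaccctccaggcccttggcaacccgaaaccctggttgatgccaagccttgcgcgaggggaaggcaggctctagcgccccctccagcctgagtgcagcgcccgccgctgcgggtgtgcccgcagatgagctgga
Cpt1c: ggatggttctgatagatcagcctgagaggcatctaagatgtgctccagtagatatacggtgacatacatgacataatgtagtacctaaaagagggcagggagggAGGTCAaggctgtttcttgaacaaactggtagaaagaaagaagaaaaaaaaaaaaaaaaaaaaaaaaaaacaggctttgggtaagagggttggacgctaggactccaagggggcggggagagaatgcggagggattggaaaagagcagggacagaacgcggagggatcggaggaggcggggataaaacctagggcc
Cpt1a: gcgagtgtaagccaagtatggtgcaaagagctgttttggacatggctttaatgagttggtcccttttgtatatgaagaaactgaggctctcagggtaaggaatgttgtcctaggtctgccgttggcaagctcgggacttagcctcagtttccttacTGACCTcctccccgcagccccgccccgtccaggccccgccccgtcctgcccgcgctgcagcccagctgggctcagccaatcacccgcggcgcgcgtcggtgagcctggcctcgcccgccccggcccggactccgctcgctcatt

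The Ppargc1a window held CGTCA 49 bases before the start, the Cpt1c window AGGTCA 146 bases before it and the Cpt1a window TGACCT 94 bases before it. The Oxct1 window held none of the letters searched. Windows were found for 34 of the 40 genes (39 windows, of 32851 in all). The nuclear receptor half-site was in 15.4% of the members' windows and 16.3% of all windows, and the cAMP half-site in 30.8% and 20.8%. The full cAMP response element TGACGTCA and the FoxO motif GTAAACA were in none of the 39, against 1.79% and 3.65% of all windows. The estrogen-related receptor motif TNAAGGTCA, which contains the half-site, was in the Acsl6 window alone, against 1.28% of all. A pair of AGGTCA copies 1 base apart, the PPAR direct repeat, was in none (0.04% of all), nor was the glucocorticoid response element (0.475% of all), searched as GNACA and TGTNC with 3 bases between. Both strands were searched, and a match is a description of letters only.

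Of the 3 genes of ketone body use, none passed with fasting in cKO neurons and all 3 fell in WT neurons. The interaction passed with a positive sign for all 3 (all genes, 8.87%). For Bdh1 the WT call was lost in 10 of 30 alternatives and the interaction call in 9 of 29. The cKO counts depend on the fit: Acat1 passed as lower and Bdh1 as higher with GC and length offsets, and Oxct1 as lower with fasted replicates 3 to 5 only. Oxct1 encodes succinyl-CoA:3-ketoacid CoA transferase, which activates acetoacetate and is the committing step of ketone use. Oxct1 had 231, 243, 209, 211 and 215 CPM in the 5 fasted cKO libraries and 239, 243, 225, 229 and 219.7 CPM in the 5 fed cKO libraries. In WT it had 152, 163, 119, 116 and 121 CPM fasted and 186, 195, 199, 212 and 214 CPM fed. All fasted WT libraries lay below all other libraries, and the fasted and fed cKO libraries overlapped. The log2 fold change with fasting (± SE) was -0.06 ± 0.076, adjusted p = 0.533 in cKO and -0.58 ± 0.077, adjusted p = 2.05e-07 in WT. The difference between the 2 responses was 0.52 ± 0.11, adjusted p = 0.00115. Fasted cKO libraries were higher than fasted WT libraries by 0.72 ± 0.078, adjusted p = 3.39e-07, and fed ones differed by 0.20 ± 0.076, adjusted p = 0.0955. That fed difference passed in a fit of those 2 groups alone, with fasted replicates 1 and 2 only, with fasted replicates 3 to 5 only or without fasted WT replicate 2 (0.19 to 0.20, adjusted p from 0.000891 to 0.0456). The cKO fasting change passed with fasted replicates 3 to 5 only (-0.12, adjusted p = 0.0452). Among the fasted WT libraries, replicates 1 and 2 were higher than replicates 3 to 5: the WT fasting change was -0.37, adjusted p = 5.41e-06 with the first set and -0.76, adjusted p = 9.35e-15 with the second. The interaction was 0.41, adjusted p = 0.00107 with the first set and 0.63, adjusted p = 3.87e-08 with the second. Of the Oxct1 exons, 12.6% overlap an antisense gene.

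Acat1, the mitochondrial thiolase that splits acetoacetyl-CoA into acetyl-CoA, had 198, 184, 196, 205 and 210.1 CPM in fasted cKO and 197, 208, 211, 222 and 202 CPM in fed cKO libraries. Its WT values were 153, 161, 155, 172 and 176 CPM fasted and 231, 235, 215, 238 and 231 CPM fed. The fasted WT libraries were again below every other library, and the cKO groups overlapped. The change with fasting was -0.067 ± 0.055, adjusted p = 0.313 in cKO and -0.49 ± 0.055, adjusted p = 1.14e-08 in WT, and the interaction was 0.42 ± 0.078, adjusted p = 0.000351. Fasted cKO exceeded fasted WT by 0.28 ± 0.056, adjusted p = 0.000764. This was a smaller difference than for Oxct1, with -0.14 ± 0.054, adjusted p = 0.0928 between fed cKO and fed WT. The cKO fasting change passed with GC and length offsets (-0.14, adjusted p = 0.0259), and the fed genotype difference by DESeq2's Wald test, in a fit of those 2 groups alone, with fasted replicates 1 and 2 only, with fasted replicates 3 to 5 only or with GC and length offsets (-0.18 to -0.15, adjusted p from 0.00617 to 0.042).

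Bdh1, the mitochondrial dehydrogenase that oxidises beta-hydroxybutyrate to acetoacetate, was the least abundant of the 3. It had 20.1, 14.4, 15.4, 20.2 and 16.95 CPM in fasted cKO and 15.6, 10.1, 16.9, 13.4 and 16.2 CPM in fed cKO libraries, and 19.9, 15.8, 16.3, 15.5 and 17.8 CPM in fasted WT and 18.2, 20.7, 19.3, 24.5 and 24.02 CPM in fed WT libraries. Here fed cKO libraries were low: each lay below every fed WT library (-0.56 ± 0.13, adjusted p = 0.00665). Its fasting change was 0.27 ± 0.14, adjusted p = 0.101 in cKO and -0.32 ± 0.14, adjusted p = 0.0417 in WT, with overlap in both, and the interaction was 0.59 ± 0.19, adjusted p = 0.0338. Fasted cKO and fasted WT libraries differed by 0.032 ± 0.14, adjusted p = 0.9. The cKO change passed with GC and length offsets (0.41, adjusted p = 0.0141). The WT call was lost with DESeq2 size factors, by DESeq2's Wald test, with fasted replicates 1 and 2 only, with GC and length offsets or without any 1 of fasted WT replicates 2, 3 and 4 and fed WT replicates 2, 4 and 5 (-0.33 to -0.21, adjusted p from 0.0527 to 0.191). The interaction call was lost with fasted replicates 1 and 2 only or without any 1 of fasted cKO replicates 1 and 4, fed cKO replicates 2 and 4, fasted WT replicates 3 and 4 and fed WT replicates 4 and 5 (0.49 to 0.58, adjusted p from 0.0547 to 0.153). An antisense gene overlaps 13.7% of the Bdh1 exons.

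**Figure D4:**
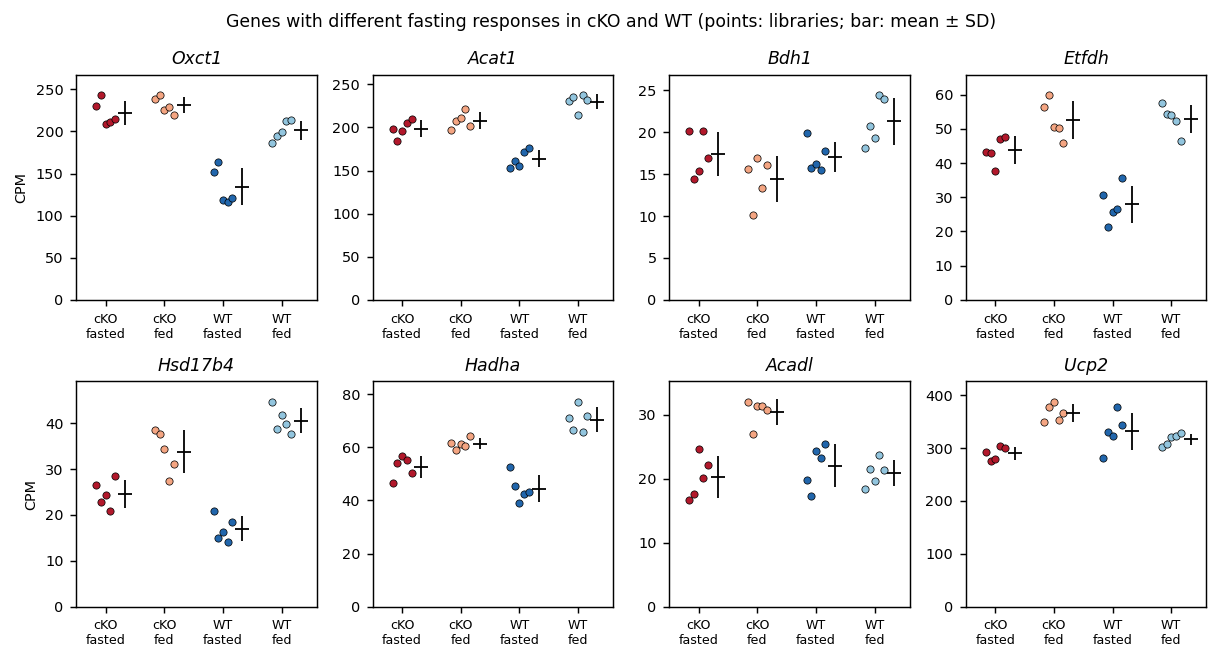
CPM of 8 of the 10 genes whose fasting response differed between genotypes; points are libraries and bars the mean ± SD of 5. For Oxct1, Acat1, Etfdh, Hsd17b4 and Hadha the fasted WT mean is the lowest of the 4, while for Acadl and Ucp2 the fed cKO mean is the highest.

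The long-chain acyl-CoA synthetases, which activate fatty acids, split by form: 2 of 5 rose and 1 fell with fasting in each genotype. Acsl4, which favours arachidonic acid, rose in both. It had 82.1, 72.7, 69.6, 57.8 and 79.6 CPM in fasted cKO and 56.3, 53.6, 43.2, 49.00 and 42.2 CPM in fed cKO libraries, and 63.2, 62.3, 61.9, 73.99 and 78.6 CPM in fasted WT and 47.1, 58.01, 53.03, 44.6 and 56.6 CPM in fed WT libraries. In both genotypes every fasted library lay above every fed library (0.57 ± 0.10, adjusted p = 3.08e-05 in cKO and 0.39 ± 0.10, adjusted p = 0.00154 in WT). In WT the rise was 0.26, adjusted p = 0.0425 with fasted replicates 1 and 2 alone.

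Acsl3, a form found on lipid droplets and the endoplasmic reticulum, had 76.4, 82.8, 75.2, 79.4 and 84.5 CPM in fasted cKO and 65.4, 74.9, 67.96, 68.3 and 70.1 CPM in fed cKO libraries. Its WT libraries held 71.3, 68.2, 68.98, 63.6 and 83.1 CPM fasted and 62.3, 64.8, 71.02, 58.3 and 63.7 CPM fed. The cKO groups did not overlap (0.20 ± 0.072, adjusted p = 0.0211), the WT groups did (0.15 ± 0.072, adjusted p = 0.0735), and the interaction was 0.05 ± 0.10, adjusted p = 0.785. The cKO call was lost with upper-quartile normalization, without the low-count filter, with GC and length offsets or without any 1 of fasted cKO replicate 5 and fed cKO replicate 1 (0.10 to 0.19, adjusted p from 0.0519 to 0.237). The WT change passed with DESeq2 size factors, by DESeq2's Wald test or without any 1 of fasted WT replicate 4 and fed WT replicate 3 (0.17 to 0.19, adjusted p from 0.0324 to 0.0454), and the difference between fasted cKO and fasted WT without fasted WT replicate 5 (0.23, adjusted p = 0.0278).

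Acsl1, the main form of liver and fat, had 45.1, 36.6, 37.8, 31.1 and 39.3 CPM in fasted cKO and 36.7, 43.9, 38.05, 35.7 and 35.9 CPM in fed cKO libraries. In WT libraries it had 48.5, 42.2, 54.2, 53.9 and 52.96 CPM fasted and 44.4, 40.3, 44.97, 34.3 and 37.2 CPM fed. The high values were those of the fasted WT libraries, although all groups overlapped. It rose in WT (0.33 ± 0.10, adjusted p = 0.00549), gave -0.0049 ± 0.10, adjusted p = 0.974 in cKO and was lower in fasted cKO than in fasted WT (-0.41 ± 0.10, adjusted p = 0.0045), while the interaction gave -0.33 ± 0.14, adjusted p = 0.105. The WT call was lost with fasted replicates 1 and 2 only (0.16, adjusted p = 0.256), and the genotype call with fasted replicates 1 and 2 only (-0.14, adjusted p = 0.581). The interaction passed with fasted replicates 3 to 5 only or without fasted WT replicate 2 (-0.50 to -0.38, adjusted p from 0.00674 to 0.0469). Acsl5 fell in cKO (-0.47 ± 0.10, adjusted p = 0.000404) and in WT (-0.64 ± 0.10, adjusted p = 5.18e-06), and Acsl6, the form typical of brain, gave -0.029 and 0.017.

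In the carnitine shuttle 3 of 5 genes fell with fasting in each genotype and none rose. Cpt1c, the brain form of carnitine palmitoyltransferase 1, lies in the endoplasmic reticulum and has little catalytic activity of its own. It had 42.6, 36.7, 48.9, 45.6 and 42.1 CPM in fasted cKO and 86.4, 79.3, 83.2, 83.00 and 80.2 CPM in fed cKO libraries. WT values were 46.2, 48.2, 57.4, 55.7 and 57.6 CPM fasted and 93.7, 93.5, 97.9, 91.9 and 95.3 CPM fed. Fasted and fed libraries were far apart in both genotypes (-0.93 ± 0.076, adjusted p = 4.88e-11 in cKO and -0.83 ± 0.074, adjusted p = 1.5e-10 in WT). With GC and length offsets these were -0.59 and -0.55. Cpt1c was lower in fasted cKO than in fasted WT (-0.30 ± 0.078, adjusted p = 0.00762), a call lost in a fit of those 2 groups alone or with fasted replicates 1 and 2 only (-0.30 to -0.24, adjusted p from 0.0685 to 0.126). Cpt1a, the form that carries most long-chain import in liver, ranged from 0.126 to 3.22 CPM in fasted cKO, 1.05 to 2.91 in fed cKO, 0.45 to 1.32 in fasted WT and 0.431 to 1.93 in fed WT libraries. None of its comparisons passed, but the cKO fasting change (-0.63 ± 0.52, adjusted p = 0.319) passed with fasted replicates 1 and 2 only or without fasted cKO replicate 5 (-1.78 to -1.53, adjusted p from 0.0187 to 0.0454).

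Cpt2, which rebuilds acyl-CoA on the inner mitochondrial membrane, had 15.5, 14.04, 14.4, 15.3 and 15.4 CPM in fasted cKO and 30.6, 24.4, 36.1, 28.1 and 27.4 CPM in fed cKO libraries. WT libraries had 14.6, 15.9, 8.35, 9.01 and 16.8 CPM fasted and 24.02, 24.2, 24.8, 27.2 and 28.9 CPM fed. Every fasted library lay below every fed library of its genotype (-0.97 ± 0.15, adjusted p = 2.72e-06 in cKO and -1.002 ± 0.15, adjusted p = 1.48e-06 in WT). The 2 responses gave an interaction of 0.028 ± 0.21, adjusted p = 0.949. Crot, the carnitine octanoyltransferase that exports shortened chains from peroxisomes, had 7.75, 5.57, 8.34, 7.26 and 7.76 CPM in fasted cKO and 12.04, 10.8, 9.18, 9.204 and 10.1 CPM in fed cKO libraries. In WT it had 6.66, 4.26, 4.77, 4.62 and 5.52 CPM fasted and 9.87, 11.2, 9.49, 8.41 and 13.2 CPM fed. It fell without overlap in cKO (-0.48 ± 0.16, adjusted p = 0.0137) and in WT (-1.01 ± 0.17, adjusted p = 6.52e-06), the interaction gave 0.53 ± 0.23, adjusted p = 0.116, and fasted cKO was higher than fasted WT (0.51 ± 0.17, adjusted p = 0.0387). The cKO call was lost with fasted replicates 3 to 5 only (-0.39, adjusted p = 0.0656). The genotype call was lost with upper-quartile normalization, without the low-count filter, in a fit of those 2 groups alone, with fasted replicates 1 and 2 only, with GC and length offsets or without any 1 of fasted cKO replicates 1, 3, 4 and 5 and fasted WT replicates 2, 3, 4 and 5 (0.29 to 0.53, adjusted p from 0.0512 to 0.568). Crat, which handles short chains, gave 0.12 in cKO and -0.12 in WT, and its cKO change passed with GC and length offsets (0.43, adjusted p = 0.0425).

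**Figure D5:**
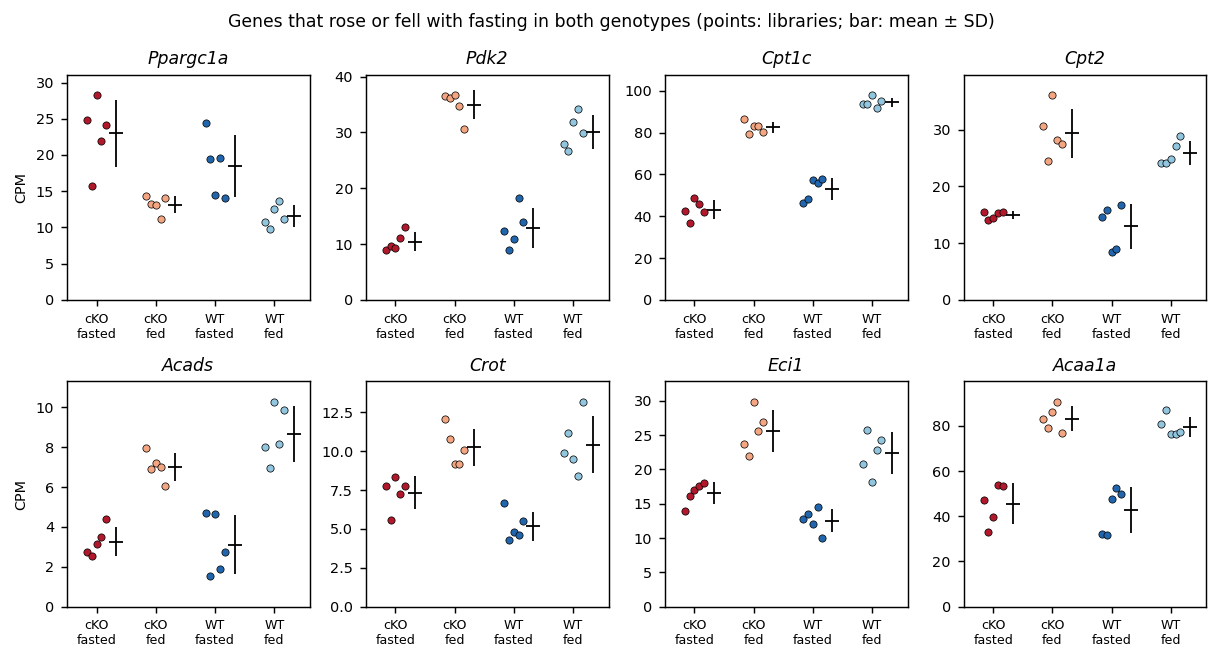
CPM of 8 genes that passed in both genotypes with fasting; points are libraries and bars the mean ± SD of 5. Ppargc1a is higher and the other 7 are lower in every fasted library than in any fed library of the same genotype. The share of all genes that separate in this way was not counted.

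The acyl-CoA dehydrogenases carry out the first step of each mitochondrial round and differ in the chain length they accept. Of 6, 1 rose and 3 fell with fasting in cKO, and 5 fell in WT. Acads, the short-chain enzyme, fell most among them. It had 2.75, 2.53, 3.13, 3.52 and 4.42 CPM in fasted cKO and 7.94, 6.88, 7.22, 6.99 and 6.03 CPM in fed cKO libraries, and 4.68, 1.55, 4.66, 1.91 and 2.76 CPM in fasted WT and 8.01, 6.96, 10.3, 8.18 and 9.88 CPM in fed WT libraries. No fasted library reached a fed library of its genotype (-1.09 ± 0.24, adjusted p = 0.000317 in cKO and -1.46 ± 0.24, adjusted p = 4.92e-06 in WT), and the interaction gave 0.37 ± 0.34, adjusted p = 0.486.

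Acadm, the medium-chain enzyme, moved in opposite directions. It had 67.02, 68.04, 59.4, 61.6 and 65.3 CPM in fasted cKO and 60.6, 59.4, 60.3, 52.2 and 51.7 CPM in fed cKO libraries. WT libraries had 58.3, 57.7, 48.05, 53.7 and 60.1 CPM fasted and 64.1, 68.5, 61.9, 59.2 and 69.1 CPM fed. The groups overlapped within each genotype and both changes were small: 0.18 ± 0.075, adjusted p = 0.0488 in cKO and -0.22 ± 0.075, adjusted p = 0.0149 in WT. The interaction was 0.39 ± 0.11, adjusted p = 0.0102. The rise in cKO was lost with upper-quartile normalization, without the low-count filter, with fasted replicates 3 to 5 only or without any 1 of fasted cKO replicates 1, 2 and 5, fed cKO replicates 4 and 5, fasted WT replicate 4 and fed WT replicates 1, 2, 3, 4 and 5 (0.13 to 0.18, adjusted p from 0.0505 to 0.179). The fall in WT was lost with fasted replicates 1 and 2 only or without fasted WT replicate 3 (-0.17, adjusted p from 0.0595 to 0.105). Fasted cKO against fasted WT gave 0.21 ± 0.077, adjusted p = 0.0518, which passed by DESeq2's Wald test, with a replicate block or without any 1 of fasted cKO replicate 3 and fasted WT replicates 1, 2 and 5 (0.21 to 0.24, adjusted p from 0.0386 to 0.0474).

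Acadl, the long-chain enzyme, stood out in fed cKO libraries. It had 16.6, 17.6, 24.7, 20.1 and 22.1 CPM in fasted cKO and 32.03, 26.96, 31.4, 31.4 and 30.7 CPM in fed cKO libraries, and 19.9, 17.3, 24.3, 23.3 and 25.5 CPM in fasted WT and 18.4, 21.5, 19.6, 23.7 and 21.4 CPM in fed WT libraries. All 5 fed cKO libraries were above every other library. It was higher in fed cKO than in fed WT (0.54 ± 0.11, adjusted p = 0.00196) and fell with fasting in cKO (-0.59 ± 0.12, adjusted p = 0.000108), with 0.08 ± 0.12, adjusted p = 0.571 in WT and -0.13 ± 0.12, adjusted p = 0.497 between fasted cKO and fasted WT. The interaction was -0.67 ± 0.17, adjusted p = 0.00533.

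Acadsb, the short and branched chain enzyme, also serves isoleucine breakdown. Acadsb shared the direction of Oxct1 in the WT fasting change, the fasted genotype difference and the interaction. It had 135, 133, 125, 126 and 131 CPM in fasted cKO and 113, 138, 121, 135 and 129 CPM in fed cKO libraries. Its WT values were 111, 121, 94.7, 103 and 86.2 CPM fasted and 121, 132, 127, 137 and 124 CPM fed. Fasted cKO libraries lay above all fasted WT libraries (0.34 ± 0.075, adjusted p = 0.00202). Its fasting change was 0.03 ± 0.074, adjusted p = 0.76 in cKO and -0.31 ± 0.074, adjusted p = 0.000608 in WT, and the interaction was 0.34 ± 0.10, adjusted p = 0.0223. All 3 calls were lost with fasted replicates 1 and 2 only, where the WT change was -0.16, adjusted p = 0.0641, the fasted genotype difference 0.22, adjusted p = 0.0986 and the interaction 0.23, adjusted p = 0.126. Acadvl, the very-long-chain enzyme, gave -0.15 ± 0.079, adjusted p = 0.102 in cKO and -0.31 ± 0.079, adjusted p = 0.0011 in WT, and its cKO change passed with upper-quartile normalization (-0.19, adjusted p = 0.0434). Acad9, which also serves assembly of respiratory complex I, fell in cKO (-0.59 ± 0.12, adjusted p = 0.000225) and in WT (-0.83 ± 0.12, adjusted p = 1.66e-06). Its fasted genotype difference passed with fasted replicates 1 and 2 only or without fasted WT replicate 3 (0.36 to 0.46, adjusted p from 0.0203 to 0.039), and its interaction with fasted replicates 1 and 2 only or without fasted WT replicate 3 (0.43 to 0.54, adjusted p from 0.0279 to 0.0346).

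In the later mitochondrial steps 1 of 5 genes rose and 3 fell in cKO, and 2 fell in WT. Hadha and Hadhb encode the 2 subunits of the trifunctional protein, which handles long chains, and they did not move alike. Hadhb had 178, 168, 173, 179.7 and 181 CPM in fasted cKO and 155, 156, 164, 154 and 167 CPM in fed cKO libraries, and 160.5, 147, 146, 168 and 178 CPM in fasted WT and 164, 154, 165, 178 and 159 CPM in fed WT libraries. Its change was 0.15 ± 0.059, adjusted p = 0.0378 in cKO and -0.036 ± 0.059, adjusted p = 0.611 in WT. The cKO rise was lost with upper-quartile normalization, without the low-count filter, with fasted replicates 1 and 2 only, with GC and length offsets or without any 1 of fasted cKO replicates 1, 4 and 5 and fed cKO replicates 1, 2 and 4 (0.065 to 0.15, adjusted p from 0.0538 to 0.415). Fasted cKO was higher than fasted WT without fasted WT replicate 5 (0.18, adjusted p = 0.0355). Hadha averaged 52.5 ± 4.09 CPM in fasted cKO and 61.3 ± 1.98 CPM in fed cKO libraries, against 44.4 ± 5.06 CPM in fasted WT and 70.4 ± 4.604 CPM in fed WT libraries. Hadha fell in cKO (-0.22 ± 0.077, adjusted p = 0.0163) and in WT (-0.66 ± 0.078, adjusted p = 2.34e-08), with an interaction of 0.44 ± 0.11, adjusted p = 0.0055, and was higher in fasted cKO than in fasted WT (0.24 ± 0.08, adjusted p = 0.0306). The cKO fall was lost with GC and length offsets or without fasted cKO replicate 1 (-0.18 to -0.16, adjusted p from 0.0615 to 0.0849). The interaction was lost with fasted replicates 1 and 2 only (0.26, adjusted p = 0.184). The fasted genotype call was lost with upper-quartile normalization, in a fit of those 2 groups alone, with fasted replicates 1 and 2 only or without any 1 of fasted cKO replicates 2, 3 and 4 and fasted WT replicates 3, 4 and 5 (0.051 to 0.23, adjusted p from 0.0555 to 0.819), and was 0.38, adjusted p = 0.00115 with fasted replicates 3 to 5.

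Echs1, the short-chain hydratase, had 53.9, 54.9, 60.02, 61.2 and 59.8 CPM in fasted cKO and 67.1, 65.99, 78.1, 69.4 and 74.5 CPM in fed cKO libraries. In WT it had 72.1, 73.6, 67.4, 78.7 and 66.3 CPM fasted and 71.9, 68.99, 79.8, 83.1 and 78.9 CPM fed. The fasted cKO libraries were below all others. Echs1 fell in cKO (-0.29 ± 0.073, adjusted p = 0.0012), gave -0.10 ± 0.072, adjusted p = 0.253 in WT and was lower in fasted cKO than in fasted WT (-0.30 ± 0.074, adjusted p = 0.00399), while the interaction gave -0.20 ± 0.10, adjusted p = 0.188. Acaa2, the mitochondrial thiolase of the last step, had 8.13, 8.22, 12.6, 8.97 and 9.19 CPM in fasted cKO and 16.7, 15.5, 17.7, 15.4 and 16.2 CPM in fed cKO libraries. Its WT libraries held 14.6, 14.98, 9.44, 7.88 and 6.29 CPM fasted and 18.9, 20.4, 15.2, 17.1 and 18.6 CPM fed. It fell without overlap in cKO (-0.79 ± 0.18, adjusted p = 0.000472) and in WT (-0.77 ± 0.17, adjusted p = 0.000396). In WT, fasted replicates 1 and 2 were close to fed libraries and replicates 3 to 5 were low: the call was lost with fasted replicates 1 and 2 only (-0.30, adjusted p = 0.0882) and the change was -1.19, adjusted p = 3.33e-08 with replicates 3 to 5. The fasted genotype difference of Acaa2 was -0.84, adjusted p = 0.00449 with replicates 1 and 2 and 0.38, adjusted p = 0.129 with replicates 3 to 5, beside -0.16 over all 5. Its interaction was -0.69, adjusted p = 0.0345 with the first set and 0.53, adjusted p = 0.0705 with the second, so that both turned sign between the sets. Hadh, the short-chain hydroxyacyl-CoA dehydrogenase, had 5.88, 8.09, 13.8, 12.5 and 16.4 CPM in fasted cKO and 15.3, 11.7, 15.1, 12.9 and 15.3 CPM in fed cKO libraries. It gave -0.31 in cKO and -0.021 in WT, with neither passing. The cKO change passed with fasted replicates 1 and 2 only or without fasted cKO replicate 5 (-1.01 to -0.48, adjusted p from 7.44e-05 to 0.0432) and was 0.017, adjusted p = 0.94 with fasted replicates 3 to 5.

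Among the auxiliary enzymes of unsaturated chains, Eci1 fell in both genotypes while Eci2 and Decr1 did not pass. Eci1, a mitochondrial enoyl-CoA isomerase, had 14.00, 16.2, 17.03, 17.6 and 18.03 CPM in fasted cKO and 23.6, 21.9, 29.8, 25.7 and 26.9 CPM in fed cKO libraries. WT libraries had 12.7, 13.4, 12.04, 14.5 and 10.04 CPM fasted and 20.8, 25.8, 18.1, 22.9 and 24.3 CPM fed. Fasted and fed libraries did not overlap in cKO (-0.63 ± 0.12, adjusted p = 7.54e-05) or WT (-0.84 ± 0.12, adjusted p = 1.29e-06). Fasted cKO was higher than fasted WT (0.40 ± 0.13, adjusted p = 0.0255), with an interaction of 0.21 ± 0.17, adjusted p = 0.438. That genotype call was lost in a fit of those 2 groups alone, with fasted replicates 1 and 2 only or without any 1 of fasted cKO replicates 4 and 5 and fasted WT replicates 3 and 5 (0.22 to 0.39, adjusted p from 0.0522 to 0.514). Eci2, a second isomerase, gave -0.094 in cKO and -0.037 in WT, and Decr1, a dienoyl-CoA reductase, 0.084 and 0.14. The Eci2 change in cKO passed with fasted replicates 1 and 2 only (-0.21, adjusted p = 0.0388), and Decr1 was lower in fasted cKO than in fasted WT with GC and length offsets (-0.34, adjusted p = 0.0287).

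The electron transfer flavoprotein takes electrons from the acyl-CoA dehydrogenases, and its dehydrogenase Etfdh passes them to ubiquinone. In the main fit its alpha subunit rose with fasting while the beta subunit and Etfdh fell, in both genotypes. That rise turned sign with GC and length offsets, and the cKO falls were lost in some fits, as given below. Etfdh had 43.3, 43.00, 37.5, 46.98 and 47.8 CPM in fasted cKO and 56.5, 59.9, 50.7, 50.1 and 45.8 CPM in fed cKO libraries, and 30.6, 21.3, 25.6, 26.6 and 35.5 CPM in fasted WT and 57.6, 54.3, 54.03, 52.2 and 46.5 CPM in fed WT libraries. All 5 fasted WT libraries were below every other library. The fall was -0.27 ± 0.10, adjusted p = 0.0318 in cKO and -0.92 ± 0.11, adjusted p = 1.97e-08 in WT, and the interaction was 0.65 ± 0.15, adjusted p = 0.00268. Fasted cKO exceeded fasted WT by 0.64 ± 0.11, adjusted p = 0.000145, while fed groups gave -0.0098 ± 0.10, adjusted p = 0.969. The cKO fall was lost with GC and length offsets or without any 1 of fasted cKO replicates 1, 2 and 3 and fed cKO replicates 1 and 2 (-0.26 to -0.22, adjusted p from 0.0551 to 0.102).

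Etfa had 83.9, 81.3, 92.5, 92.3 and 93.00 CPM in fasted cKO and 78.6, 76.9, 75.3, 77.2 and 74.7 CPM in fed cKO libraries. In WT it had 88.02, 84.1, 80.6, 83.1 and 86.1 CPM fasted and 70.1, 77.5, 69.5, 77.1 and 76.9 CPM fed. The rise was small but without overlap: 0.21 ± 0.06, adjusted p = 0.00427 in cKO and 0.19 ± 0.06, adjusted p = 0.00969 in WT. Its sign turned with GC and length offsets: the cKO call was lost with fasted replicates 1 and 2 only or with GC and length offsets (-0.032 to 0.11, adjusted p from 0.212 to 0.667) and the WT call with GC and length offsets (-0.039, adjusted p = 0.57). Etfb gave -0.18 ± 0.071, adjusted p = 0.0374 in cKO and -0.22 ± 0.071, adjusted p = 0.00978 in WT. The cKO call was lost with DESeq2 size factors, by DESeq2's Wald test or without any 1 of fasted cKO replicates 1, 4 and 5 and fed cKO replicates 3 and 5 (-0.18 to -0.14, adjusted p from 0.052 to 0.119), and the WT call with fasted replicates 1 and 2 only (-0.10, adjusted p = 0.277). Etfb was lower in fasted cKO than in fasted WT with fasted replicates 1 and 2 only (-0.29, adjusted p = 0.0427).

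Of the 4 peroxisomal enzymes, all 4 fell with fasting in cKO and 2 fell in WT. The interaction passed for 1 of the 4, Hsd17b4, with a positive sign (all genes, 8.87%), and not for Ehhadh or Acox3. Hsd17b4, the bifunctional enzyme of the main peroxisomal route for branched and very long chains, had 26.6, 22.9, 24.4, 20.8 and 28.5 CPM in fasted cKO and 38.5, 37.7, 34.4, 27.4 and 31.1 CPM in fed cKO libraries. Its WT values were 20.9, 14.98, 16.3, 14.2 and 18.5 CPM fasted and 44.7, 38.8, 41.8, 39.9 and 37.7 CPM fed. The fall was -0.46 ± 0.11, adjusted p = 0.0012 in cKO, with overlap, and -1.26 ± 0.12, adjusted p = 2.54e-10 in WT, without overlap. The interaction of 0.80 ± 0.16, adjusted p = 0.000916 had the highest log2 value of the 10 that passed. Fasted cKO was higher than fasted WT (0.54 ± 0.12, adjusted p = 0.00204), a call lost with fasted replicates 1 and 2 only (0.47, adjusted p = 0.071).

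Acaa1a, the peroxisomal thiolase, had 47.1, 33.01, 39.7, 53.9 and 53.6 CPM in fasted cKO and 83.1, 79.3, 86.4, 90.7 and 77.04 CPM in fed cKO libraries. WT libraries had 32.1, 31.5, 47.8, 52.7 and 49.9 CPM fasted and 80.8, 86.9, 76.4, 76.3 and 77.3 CPM fed. It fell by like amounts in cKO (-0.87 ± 0.12, adjusted p = 1.04e-06) and WT (-0.89 ± 0.12, adjusted p = 4.99e-07), with an interaction of 0.02 ± 0.17. With GC and length offsets these changes were -0.49 and -0.55, and with fasted replicates 1 and 2 alone the WT change was -1.34, adjusted p = 4.19e-13. Ehhadh, the other bifunctional enzyme, had 1.5, 2.28, 3.82, 1.13 and 3.34 CPM in fasted cKO and 4.89, 3.33, 3.71, 4.43 and 6.17 CPM in fed cKO libraries. In WT libraries Ehhadh had 3.04, 4.13, 4.66, 2.14 and 4.52 CPM fasted and 3.73, 4.16, 5.496, 5.61 and 6.03 CPM fed. At these low levels all groups overlapped. The change was -0.89 ± 0.29, adjusted p = 0.0107 in cKO and -0.43 ± 0.27, adjusted p = 0.177 in WT, and the cKO call was lost with fasted replicates 3 to 5 only (-0.70, adjusted p = 0.0637). Acox3, an oxidase of branched chains, gave -0.60 ± 0.19, adjusted p = 0.00986 in cKO and -0.21 ± 0.19, adjusted p = 0.341 in WT, and its cKO call was lost with fasted replicates 1 and 2 only or with GC and length offsets (-0.55 to -0.42, adjusted p from 0.0655 to 0.0711).

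Of the 3 regulators, only Ppargc1a passed in a fasting comparison. It encodes PGC-1alpha, a coactivator that drives mitochondrial and oxidative genes in many tissues, and its promoter window is shown above. It had 24.9, 15.7, 28.3, 21.9 and 24.1 CPM in fasted cKO and 14.3, 13.2, 13.1, 11.2 and 14.01 CPM in fed cKO libraries. WT libraries had 24.4, 19.5, 14.4, 19.6 and 14.1 CPM fasted and 10.8, 9.84, 12.5, 13.7 and 11.2 CPM fed. Every fasted library lay above every fed library of its genotype. The rise was 0.80 ± 0.15, adjusted p = 6.03e-05 in cKO and 0.67 ± 0.15, adjusted p = 0.00049 in WT, with an interaction of 0.14 ± 0.22, adjusted p = 0.708. Its fasted genotype difference was 0.32 over all 5 replicates and -0.10, adjusted p = 0.794 with replicates 1 and 2, and it passed with fasted replicates 3 to 5 only or without any 1 of fasted cKO replicate 2 and fasted WT replicate 1 (0.43 to 0.62, adjusted p from 0.00335 to 0.0386). The nuclear receptor genes were close to absent. Ppara, the fatty acid sensor that drives these genes in liver, had 0 counts in all 5 fasted cKO libraries, which allows up to 0.340 to 0.379 CPM per library. It reached 0.611 CPM in 1 fed cKO, 1.52 CPM in 1 fasted WT and 0.0779 CPM at most in fed WT libraries. Ppard averaged 0.797 ± 0.505 CPM in fasted cKO, 0.964 ± 0.55 in fed cKO, 0.971 ± 0.606 in fasted WT and 1.003 ± 0.272 in fed WT libraries. Such a limit covers counting error only, because amplified reads carried no molecular identifiers.

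Ucp2, a mitochondrial carrier, and Pdk2 and Pdk4, kinases that switch off pyruvate dehydrogenase, act where fatty acid and glucose use meet. Ucp2 was abundant, with 292, 275, 279, 304 and 300 CPM in fasted cKO and 348, 377, 387, 353 and 365 CPM in fed cKO libraries. Its WT libraries held 282, 331, 323, 378 and 344 CPM fasted and 303, 308, 320.4, 323 and 328 CPM fed. It fell without overlap in cKO (-0.34 ± 0.06, adjusted p = 2.56e-05) and gave 0.067 ± 0.06, adjusted p = 0.339 in WT, and the interaction was -0.41 ± 0.084, adjusted p = 0.00127. Ucp2 was lower in fasted cKO than in fasted WT (-0.19 ± 0.06, adjusted p = 0.0215) and higher in fed cKO than in fed WT (0.21 ± 0.059, adjusted p = 0.0228). The cKO fall was lost with GC and length offsets (-0.06, adjusted p = 0.397), while the WT change passed as a rise with fasted replicates 3 to 5 only or with GC and length offsets (0.14 to 0.30, adjusted p from 5.17e-05 to 0.013). The fasted genotype call was lost in a fit of those 2 groups alone, with fasted replicates 1 and 2 only, with GC and length offsets or without any 1 of fasted cKO replicates 2 and 3 and fasted WT replicate 4 (-0.20 to -0.10, adjusted p from 0.0513 to 0.383). The fed genotype call was lost without any 1 of fed cKO replicates 2 and 3 and fed WT replicates 1 and 2 (0.19 to 0.20, adjusted p from 0.0582 to 0.0671).

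Pdk2 fell in both genotypes. It had 8.88, 9.61, 9.27, 11.1 and 13.01 CPM in fasted cKO and 36.6, 36.3, 36.7, 34.7 and 30.6 CPM in fed cKO libraries, and 12.4, 8.91, 10.8, 18.2 and 14.01 CPM in fasted WT and 27.96, 26.6, 31.9, 34.2 and 29.9 CPM in fed WT libraries. No fasted library reached a fed library of its genotype. The fall was -1.75 ± 0.14, adjusted p = 4.56e-11 in cKO and -1.22 ± 0.14, adjusted p = 1.37e-08 in WT, and the interaction of -0.53 ± 0.20, adjusted p = 0.0635 did not pass; it passed with upper-quartile normalization, by DESeq2's Wald test, with fasted replicates 3 to 5 only or without any 1 of fasted cKO replicate 5 and fasted WT replicate 2 (-0.63 to -0.53, adjusted p from 0.0159 to 0.0463). Pdk2 was lower in fasted cKO than in fasted WT without fasted WT replicate 2 (-0.42, adjusted p = 0.0366). Pdk4, the form induced by fasting in muscle, averaged 0.546 ± 0.452 CPM in fasted cKO, 0.519 ± 0.539 in fed cKO, 0.885 ± 0.852 in fasted WT and 0.517 ± 0.187 in fed WT libraries and was not tested.

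Around the 40 genes, 115 further genes of the same pathways were followed, of which 107 were tested. With fasting 25 rose and 46 fell in cKO (23.4% and 43.0%; all genes, 26.0% and 27.0%), and 24 rose and 46 fell in WT (22.4% and 43.0%; all genes, 29.6% and 31.3%). Between genotypes 15 were higher and 8 lower in fasted cKO than in fasted WT (14.0% and 7.48%), and 6 higher and 4 lower in fed cKO than in fed WT (5.61% and 3.74%), against 11.5% and 8.84%, and 5.87% and 3.81%, of all genes. The interaction was positive for 12 and negative for 5 (11.2% and 4.67%; all genes, 8.87% and 8.44%).

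Slc25a20, the carrier that moves acylcarnitine into the mitochondrion between the 2 palmitoyltransferases, averaged 27.8 ± 4.37 CPM in fasted cKO and 21.4 ± 0.886 in fed cKO libraries, against 15.3 ± 2.46 in fasted WT and 24.2 ± 2.07 in fed WT libraries. It rose with fasting in cKO (0.37 ± 0.11, adjusted p = 0.00694) and fell in WT (-0.66 ± 0.12, adjusted p = 1.94e-05), and its interaction was 1.04 ± 0.16, adjusted p = 6.4e-05. Slc16a1, which encodes the monocarboxylate transporter for ketone bodies and lactate, rose in cKO (0.79 ± 0.18, adjusted p = 0.000565) and in WT (0.42 ± 0.18, adjusted p = 0.0426). That WT call was lost in 5 of 10 other settings and without any 1 of fed WT replicates 1, 2, 3 and 5 and fasted WT replicates 1, 2 and 5 (0.30 to 0.46, adjusted p from 0.0567 to 0.152). Of the 9 genes of ketone transport and ketogenesis 6 were tested, of which 3 rose and 1 fell in cKO (all genes, 26.0% and 27.0%). In WT 2 rose and 2 fell (29.6% and 31.3%).

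In the control of fatty acid entry by malonyl-CoA and the energy sensor AMPK, 2 of 13 genes rose and 4 fell in cKO (all genes, 26.0% and 27.0%). In WT 2 rose and 7 fell (29.6% and 31.3%). Prkaa1, a catalytic AMPK subunit, gave -0.20 ± 0.12, adjusted p = 0.165 in cKO and fell in WT (-0.97 ± 0.12, adjusted p = 8.95e-08), with an interaction of 0.77 ± 0.17, adjusted p = 0.00223. The Prkaa1 change in cKO passed with GC and length offsets (-0.36, adjusted p = 0.00909). Camkk2, a kinase that activates AMPK, gave -0.05 ± 0.20, adjusted p = 0.852 in cKO, fell in WT (-1.03 ± 0.20, adjusted p = 7.59e-05) and had an interaction of 0.98 ± 0.28, adjusted p = 0.0168. The Camkk2 interaction was lost with fasted replicates 3 to 5 only (0.75, adjusted p = 0.0812). In the control of pyruvate dehydrogenase, 7 of 12 genes rose and 3 fell in cKO, and 7 rose and none fell in WT. Mpc1 and Mpc2, the 2 subunits of the mitochondrial pyruvate carrier, rose by 0.54 ± 0.06 and 0.53 ± 0.065 in cKO and by 0.52 ± 0.06 and 0.49 ± 0.065 in WT. Dlat, the acetyltransferase core of the complex, rose by 0.56 ± 0.074 in cKO and 0.61 ± 0.074 in WT (adjusted p = 2.49e-07 and 4.7e-08). Pdp1, a phosphatase that switches the complex on, gave 0.062 ± 0.074, adjusted p = 0.505 in cKO and rose in WT (0.60 ± 0.075, adjusted p = 7.52e-08), and its interaction was -0.54 ± 0.11, adjusted p = 0.000657.

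Of the side enzymes of mitochondrial acyl-CoA breakdown, 2 of 17 tested rose and 14 fell in cKO (all genes, 26.0% and 27.0%). In WT 2 rose and 10 fell (29.6% and 31.3%). Of the further peroxisomal genes, 4 of 17 rose and 9 fell in each genotype. In lipolysis and lipid droplets, none of 11 rose and 5 fell in cKO, and 2 rose and 6 fell in WT. Plin2, a lipid droplet coat protein, fell in cKO (-1.42 ± 0.21, adjusted p = 1.53e-06) and in WT (-1.50 ± 0.20, adjusted p = 1.83e-07). In transport and binding 3 of 14 rose and 5 fell in cKO, and 1 rose and 6 fell in WT. In nuclear receptors and coactivators 4 of 17 rose and 5 fell in cKO, and 4 rose and 6 fell in WT. Ppargc1b, which encodes the relative of PGC-1alpha, fell in cKO (-1.25 ± 0.25, adjusted p = 0.000133) and in WT (-1.17 ± 0.25, adjusted p = 0.000174), opposite in sign to Ppargc1a.

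Markers of other cell types moved with some groups. The summed level of 5 Pomc neuron markers was 456 to 1120.4 CPM in fasted cKO and 344 to 446 CPM in fed cKO libraries, against 408 to 497 CPM in fasted WT and 374 to 473 CPM in fed WT libraries. For 10 astrocyte markers it was 129.5 to 184 CPM in fasted cKO, 189 to 228 CPM in fed cKO, 174 to 191 CPM in fasted WT and 195 to 293 CPM in fed WT libraries. This sum rests on the abundant genes: 4 of the 10 averaged under 1 CPM in each fasted group and 7 in each fed group. Of the 6 astrocyte markers tested, 4 had a log2 fold change above 0 and 2 below 0 with fasting in either genotype. The 10 oligodendrocyte markers summed to 49.7 to 65.7 CPM in fasted cKO, 82.8 to 104.6 CPM in fed cKO, 49.9 to 74.0 CPM in fasted WT and 90.6 to 104.8 CPM in fed WT libraries. Cldn11 was at 0 in both fasted groups and Olig2 in fed WT libraries. Tanycyte and ependymal markers summed to 52.3 to 73.1 CPM in fasted cKO, 56.4 to 68.2 CPM in fed cKO, 44.8 to 78.1 CPM in fasted WT and 62.6 to 76.2 CPM in fed WT libraries. Endothelial and mural markers summed to 4.38 to 22.4 CPM in fasted cKO, 6.60 to 14.8 CPM in fed cKO, 6.76 to 10.4 CPM in fasted WT and 2.80 to 7.55 CPM in fed WT libraries. Against these, the AgRP neuron list summed to 51764 to 70756 CPM in fasted cKO and 27339 to 31954 CPM in fed cKO libraries. In WT it summed to 60324 to 85946 CPM fasted and 21408 to 23520.0 CPM fed. Of its 12 genes, 8 rose and 2 fell with fasting in cKO (all genes, 26.0% and 27.0%). In WT 7 rose and 2 fell (29.6% and 31.3%). Of 3 Pomc markers tested, 2 rose and 1 fell in cKO, and 1 fell in WT. Of 4 oligodendrocyte markers tested, 2 fell in cKO and 3 in WT, and none rose. Some sums also differed between the 2 sets of fasted replicates. Pomc markers summed to 456 and 552 CPM in fasted cKO replicates 1 and 2. In replicates 3 to 5 they summed to 851 to 1120.4 CPM. The AgRP list summed to 63665 and 70756 CPM against 51764 to 56309 CPM in these sets. In fasted WT it summed to 85308 and 85946 CPM against 60324 to 61814 CPM. Pomc sums of fasted WT and oligodendrocyte sums overlapped between the sets. The part of other cell types in the results was not tested.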

How the data were processed

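RNA-seq was measured in 20 libraries, 5 in each of 4 groups. Per the submitters' processing notes, the authors' tools included Trimmomatic 0.36, HISAT2 2.1.0, featureCounts (Subread 1.6.2) and DESeq2 1.20.0, with build GRCm38/mm10. The values used are the raw read counts per gene that the authors deposited; their normalized table is the same counts divided by 1 factor per library and was not used. Libraries held 8494499 to 13573524 counts, which limits the precision of genes near 1 CPM. Of the gene names, 2 occur more than once.

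Genes were filtered with filterByExpr (minimum count 10, minimum total 15), scaled by TMM and fitted in edgeR 4.0.16 (R 4.3.3) with 4 group means over all 20 libraries. TMM factors were 0.902 to 0.950 in fasted and 1.055 to 1.110 in fed libraries. Quasi-likelihood tests were adjusted by Benjamini-Hochberg over 13237 genes, and a gene passed at an adjusted p under 0.05. Levels are TMM-scaled CPM. Exon lengths come from GENCODE M21, to which 95.2% of the names matched. The fit was checked on simulated data.

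Per-library values are given for members past the threshold: up to the 8 largest rises and falls per fasting comparison and up to the 6 smallest p per genotype comparison and for the interaction. Other pathway genes could be named among the 4 smallest p of their list; some of these are not reported here. The members, the lists and the comparisons were chosen with earlier results of these data known. Alternatives were other size factors, DESeq2 1.42.0, other filters, fits of 2 groups, a replicate block, each set of fasted replicates, GC and length offsets and leaving out each library.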

Additional observations from a re-analysis of the deposited data

Results flagged for a closer look

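Of 100 gene and group combinations screened, 3 held a library far from the other 4 of its group, and chance flags about 1 in 20. Acadl had 27.0 CPM in fed cKO replicate 2, below the other fed cKO libraries. Acaa2 had 12.6 CPM in fasted cKO replicate 3, above the other fasted cKO libraries. Acsl1 had 43.9 CPM in fed cKO replicate 2, above the other fed cKO libraries.

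For 10 members the fasting response in cKO minus that in WT passed the interaction test. On the log2 scale this difference was 0.80 for Hsd17b4, 0.65 for Etfdh, 0.59 for Bdh1, 0.52 for Oxct1 and 0.44 for Hadha. It was 0.42 for Acat1, 0.39 for Acadm and 0.34 for Acadsb. The negative values were -0.67 for Acadl and -0.41 for Ucp2.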

How the results depend on the processing

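Of the calls on members, 14 of 25 with fasting in cKO, 17 of 24 with fasting in WT, 4 of 12 between fasted cKO and fasted WT, 2 of 3 between fed cKO and fed WT and 7 of 10 interactions passed under every alternative. Leaving aside single left-out libraries, 1 or more alternatives added a call for 8 members with fasting in cKO, 2 with fasting in WT, 6 between fasted groups, 8 between fed groups and 4 interactions. Etfa reversed with GC and length offsets, at -0.032 in cKO and -0.039 in WT. GC and length offsets also moved Etfb to -0.30 in cKO and -0.42 in WT.

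The count of rises with fasting in cKO (6) was 3 with upper-quartile normalization (all genes, 24.2%) and 3 without a filter (17.7%). It was 3 to 6 when 1 library was left out (24.2% to 26.3%). The count higher in fed cKO than in fed WT (2) was 1 to 3 when 1 library was left out (all genes, 4.25% to 6.45%). The count lower in fed cKO (1) was 3 by DESeq2's Wald test (all genes, 4.35%) and 8 in a fit of the 2 groups alone (11.1%). It was 7 with fasted replicates 1 and 2 only (8.51%) and 7 with fasted replicates 3 to 5 only (8.47%). It was 4 with GC and length offsets (5.41%) and 1 to 2 with 1 library left out (2.49% to 4.64%). The count higher in fasted cKO than in fasted WT (8) was 5 in a fit of the 2 groups alone (all genes, 5.93%). It was 4 with fasted replicates 1 and 2 only (7.30%) and 5 to 10 with 1 library left out (8.72% to 13.0%). The count lower in fasted cKO (4) was 2 in the fit of 2 groups (5.04%). In the main fit the shares of all genes were 11.5% higher and 8.84% lower. The negative interactions (2) were 4 with fasted replicates 3 to 5 only (all genes, 13.2%) and 2 to 4 with 1 library left out (6.99% to 9.50%). The cause of these shifts was not tested.

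The labels do not say whether same-numbered libraries are linked. Their deviations from the group means correlated by 0.022 to 0.131 between fasted cKO and fasted WT libraries. Between the other pairs of groups they correlated by -0.054 to 0.037. Not every library correlated best with its own number. In the fasted groups the number also separates replicates 1 and 2 from replicates 3 to 5. With a replicate block the members' rises and falls were 6 and 19 in cKO (all genes, 26.0% and 27.4%) and 4 and 20 in WT (29.5% and 31.6%). They were 9 and 4 between fasted cKO and fasted WT (11.8% and 9.28%). Between fed cKO and fed WT they were 2 and 1 (6.09% and 3.87%), and for the interaction 8 and 2 (9.04% and 8.69%). Over all genes, fasted cKO was higher than fasted WT for 1232 and lower for 1575 with upper-quartile normalization, against 1517 and 1170 with TMM. Between fed cKO and fed WT the split was 675 and 686 with GC and length offsets, against 777 and 504 without. Depth limits Cpt1a, Ppard, Ppara and Pdk4, whose levels are near 1 CPM or below.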
